A study of Arabidopsis thaliana with 10 samples.

Results

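Transcripts that stood high in the Arabidopsis ecotype C24 after 3 h of cold, and were back near their room temperature signal after 24 h, are described here. They were selected on measured values: the mean of the 2 C24 arrays after 3 h had to exceed that at room temperature by at least 1.2 on the log2 scale, and the mean after 24 h had to lie within 0.5 of it. The selection took 196 of 22746 non-control probe sets, or 0.862%. Of these, 92 carry exactly 1 annotated gene and are named where described. Another 8 carry several genes and 96 carry none in the annotation used, so most members stay without a name.

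The series compares C24 and Col, natural accessions of Arabidopsis thaliana, in their response to cold, with transcript levels from Affymetrix ATH1 arrays. Groups of 2 arrays, called biological replicates in the series text, came from C24 at room temperature, C24 after 3 h at 4 °C, C24 after 24 h at 4 °C, Col after 24 h at 4 °C and Col at room temperature. All plants grew on plates in a chamber set to 23 and 18 °C. The labels give leaf tissue of seedlings aged 20 days, and the series text gives an age of 14 days. No Col arrays after 3 h were analysed here. There was 1 room temperature group per ecotype and no source used here gives the harvest hour, so hours of cold and hour of the day cannot be told apart.

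Within minutes to hours of chilling, plant cells take up calcium and switch on transcription factors, among them the CBF family, which in turn raise protective proteins and sugars. Transcripts that rise early and then return belong to a known first wave, which also holds genes that respond to touch, wounding and a shift in daily rhythm. A return in total RNA does not tell faster decay from lower transcription, and fewer cells of a type cannot be told apart from less RNA per cell.

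The members' log2 signals are deposited values, and every difference below is between means of log2 signals. Across all probe sets, the median SD between the 2 arrays of a group was 0.0534 to 0.0695. For the members it was 0.0664 to 0.0795. Mean signals of 27 poly-A spike-in probe sets were 5.53 to 5.57 on the Col arrays and 6.53 to 6.83 on the C24 arrays. These control signals thus differed between the ecotypes without overlap. The part of such array differences in the Col against C24 levels below was not tested. The difference of the GAPDH 3' and 5' control probe sets, a measure of RNA integrity, was 0.0947 to 0.314 on the Col arrays, 0.374 to 0.568 on the cold-treated C24 arrays, and 0.493 and 0.864 on the C24 room temperature arrays. COR27, a cold-regulated and evening-expressed gene, was at 10.93 and 10.93 on the C24 room temperature arrays, 10.90 and 10.88 after 3 h, and 10.74 and 10.72 after 24 h. On the Col arrays it was at 10.93 and 11.02 after 24 h and at 3.70 and 3.96 at room temperature. The C24 room temperature arrays thus carried COR27 at the level of cold-treated plants, and the selection rests on these arrays. With the C24 24 h arrays in their place, 142 of the 196 members were higher by at least 1.2 after 3 h. The bounds of the selection largely fix that count, so it is no independent check of the room temperature arrays.

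The selection difference in C24 had a median of 1.61, or 3.05-fold, and reached 3.88. It was at least 1.5 for 115 members, at least 2 for 48 and at least 3 for 6. After 24 h the difference from room temperature lay between -0.48 and 0.50 with a median of 0.12. The fall between 3 h and 24 h is given by the 3 h minus 24 h difference, which was 0.75 to 3.81 with a median of 1.57. These values chose the members, so they describe them and nothing is tested.

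**Figure D1:**
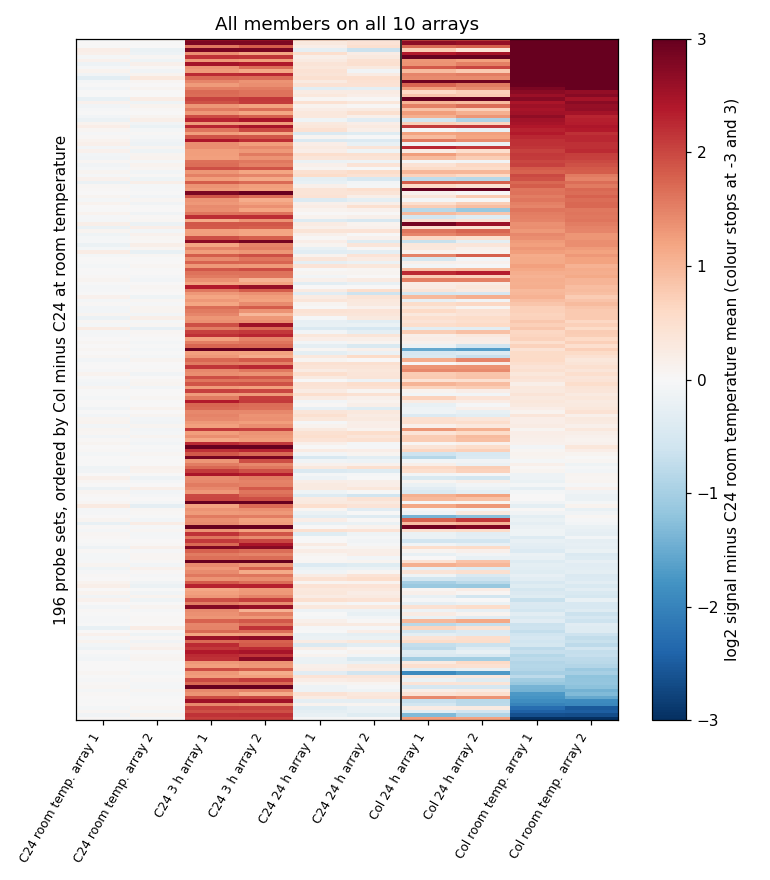
Log2 signal of the 196 members on each of the 10 arrays, minus the C24 room temperature mean, with 1 row per probe set ordered by Col minus C24 at room temperature and colours that stop at -3 and 3. The C24 3 h columns are high and the C24 24 h columns pale throughout, as the selection requires. The Col room temperature columns run from high at the top to low at the bottom, as the order sets, and the Col 24 h columns are paler than them at both ends.

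At the edges of the selection, SP1L2 entered with a 3 h difference of 1.201 and AT1G13370 stayed outside with 1.198. AT1G14960 entered with a 24 h difference of 0.498, and AT1G76360 stayed outside with 0.502. At the lower 24 h bound, AT2G41640 entered with -0.483 and AT1G06620 stayed outside with -0.508. The return is therefore graded, and the bounds pass through a continuous range. In all, 751 probe sets stood at least 1.2 higher at 3 h. The 196 members are 26.1% of them, 328 were still at least 1.2 higher at 24 h, 208 lay between 0.5 and 1.2, and 19 were below -0.5.

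Most members were brightest in C24 after 3 h of cold. The selection places this group above the other C24 groups, so only the Col groups could exceed it. The C24 values in this paragraph follow from the selection and are a description. The C24 3 h mean was the highest of the 5 group means for 143 members, Col at room temperature was the highest for 42 and Col after 24 h for 11. For 70 members, 33 of them named, the C24 3 h mean exceeded each of the other 4 means by at least 1.2. The median of the members' group means was 5.92 in C24 at room temperature, 7.56 after 3 h and 6.06 after 24 h. In Col the median was 6.54 after 24 h and 6.75 at room temperature. The matching medians over all probe sets lay between 6.52 and 6.58.

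A share of the members had signals below the lower quartile of their array, called the background range here. On both arrays of the group, 24 members lay there in C24 at room temperature, 0 after 3 h and 25 after 24 h. In Col there were 20 after 24 h and 16 at room temperature. Outside C24 after 3 h, where the required rise works against such signals, these are 8.16% to 12.8% of the members. Of all probe sets, 23.7% to 23.9% lay in this range in each group. Differences of such members from a background-range group are not known to be above background there. For 8 members every group except C24 after 3 h was in this range, among them the named AT4G22960, AT3G10780, AT3G14700 and the pseudogene RSU1, listed after their values were seen.

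The probe set with the greatest 3 h difference carries no gene name. The signals were 4.10 and 4.18 in C24 at room temperature, 7.85 and 8.18 after 3 h, and 4.19 and 4.23 after 24 h. In Col they were 4.57 and 4.99 after 24 h and 3.75 and 3.90 at room temperature. The C24 3 h arrays thus stood apart from the other 8 arrays.

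**Figure D2:**
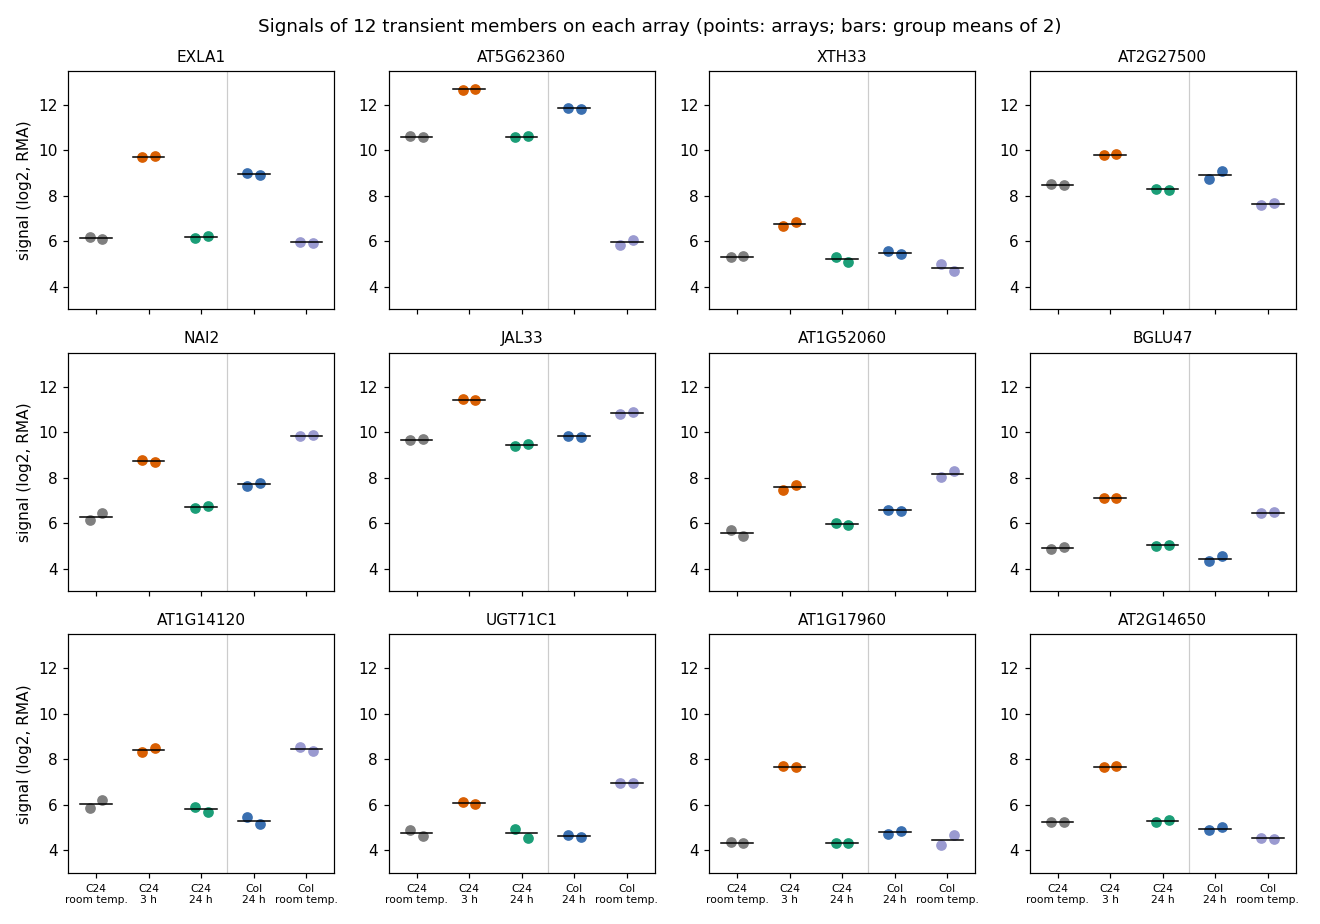
Log2 signal on each of the 10 arrays for 12 members, 1 panel per gene, with the C24 groups in order of time in cold, then Col after 24 h of cold and Col at room temperature. Points are arrays and bars the means of 2 arrays. EXLA1 is high in C24 after 3 h and in Col after 24 h, whereas NAI2 is highest in Col at room temperature.

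The question left to test was what the same transcripts did in Col, since no Col array entered the selection. After 24 h of cold in Col, members were called in both directions: 66 were higher, where 23.2% of all probe sets were called higher, and 89 were lower, where 25.9% of all were called lower (limma, Benjamini-Hochberg adjusted p below 0.05). These are 33.7% and 45.4% of the members. The remaining 41 were not called. The Col arrays did not overlap between 24 h and room temperature for any of the 155 called members, nor for any of the 11174 called probe sets in all. Changes of at least 2-fold were called for 29 members upwards and 53 downwards, or 14.8% and 27.0% of the members, against 4.24% and 4.14% of all probe sets. The median Col difference was -0.15 with quartiles of -1.03 and 0.53, whereas over all probe sets it was 0.01 with quartiles of -0.26 and 0.22. Its range over the members was -3.58 to 5.89. The members thus moved both ways in Col, with a wider spread than probe sets in general. This spread was not particular to them. Other probe sets with a 3 h rise of at least 1.2 had Col quartiles of -0.86 and 0.55 where the rise was partly kept at 24 h. Where the rise was kept, the quartiles were -0.45 and 0.90. Leaving out probe sets whose group means were all below the lower quartile, 5174 of 18090 were called higher and 5874 lower.

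**Figure D3:**
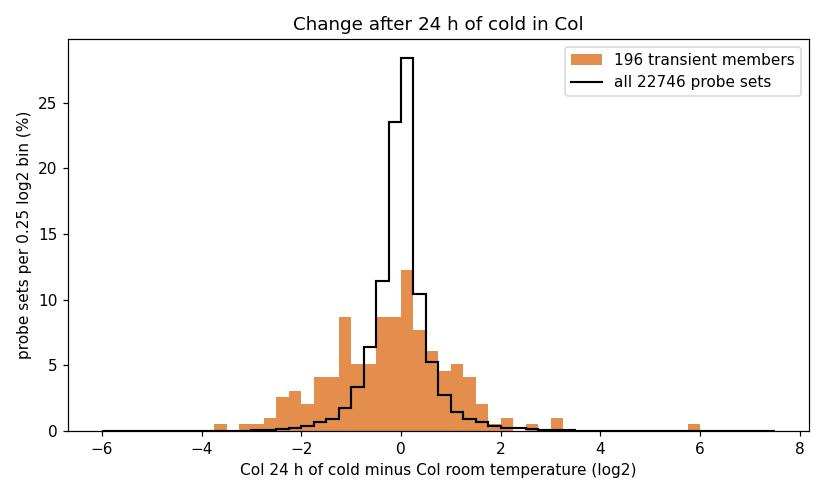
Distribution of the log2 difference, Col after 24 h of cold minus Col at room temperature, as percent of probe sets per bin for the 196 members and for all 22746 non-control probe sets. The members' quartiles are -1.03 and 0.53, those of all probe sets -0.26 and 0.22.

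The other transcripts that stood at least 1.2 higher in C24 at 3 h give a comparison by how far they had returned. Of the 328 that kept the difference at 24 h, 168 were higher and 105 lower in Col after 24 h, with a median of 0.26. Of the 208 that partly kept it, 69 were higher and 95 lower, with a median of -0.13. Of the 19 that ended below their start, 3 were higher and 15 lower. The members' own counts, 66 higher and 89 lower of 196, are close to those of the partly kept transcripts. Whether these groups differ was not tested.

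Roles were assigned to 48 of the 92 named members after their values were seen, so the groups below describe the members. Of the 92, 28 were called higher and 42 lower in Col, against 23.2% and 25.9% of all probe sets. Counts per role and per gene list are to be read beside these shares, and whether a role or list goes with a direction was not tested. Values are given for C24 at room temperature, after 3 h and after 24 h in that order, then for Col after 24 h and at room temperature. Adjusted p-values for Col are from limma over all probe sets, and an error after ± is a standard error with 2 arrays per group.

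The members assigned a cell wall role were mostly higher in Col after 24 h, with 5 of 7 called higher and 1 lower. This assignment need not hold every wall gene among the members, and those left out may go the other way. Their median Col difference was 1.21. EXLA1 (AT3G45970) encodes an expansin-like protein of the wall-loosening expansin superfamily. Its signals in C24 were 6.18 and 6.10, then 9.70 and 9.74 at 3 h, then 6.15 and 6.24 at 24 h, a 3 h difference of 3.58 or 12-fold. Its Col signals were 9.02 and 8.90 after 24 h, against 5.96 and 5.94 at room temperature, a difference of 3.01 ± 0.07 (adjusted p = 1.84e-10). EXLA1 was therefore high in Col at 24 h, a time at which it was back at its starting level in C24.

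AT5G62360 belongs to the family of invertase and pectin methylesterase inhibitors, which restrain sucrose cleavage or pectin remodelling. Its signals in C24 were 10.64 and 10.58, then 12.67 and 12.68 at 3 h, then 10.58 and 10.63 at 24 h. In Col it was at 11.87 and 11.82 after 24 h, against 5.83 and 6.08 at room temperature, a difference of 5.89 ± 0.09 (adjusted p = 4.7e-12) and the greatest rise of any member. The ecotypes thus lay farther apart before cold, where C24 was already bright, than after 24 h. Col minus C24 at room temperature reached -4.65 among the members, and this gene holds that value.

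AT2G41640, of glycosyltransferase family 61, was at 5.68 and 5.80 in Col after 24 h, against 4.62 and 4.43 at room temperature. AT2G27500, of the beta-1,3-glucanase family that breaks down callose and related glucans, was at 8.75 and 9.09 in Col after 24 h, against 7.61 and 7.69 at room temperature. XTH33 (AT1G10550), a xyloglucan endotransglucosylase/hydrolase that cuts and rejoins wall xyloglucan, was at 5.57 and 5.43 in Col after 24 h, against 5.01 and 4.68 at room temperature. These 3 rose in Col by 1.21, 1.27 and 0.65, and their 3 h differences in C24 were 1.84, 1.32 and 1.44. AT3G27400, of the pectate lyase family, went the other way in Col and fell by 0.62. AT5G11610, of the exostosin family, had a Col difference of 0.05 and was not called (adjusted p = 0.73).

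For 6 of these 7 wall members the mean in Col at room temperature was at or below that in C24 at room temperature, and for 0 of 7 it reached the C24 3 h mean. Of 29 measured genes for xyloglucan transferases and expansins, 2 are members, 6 stood at least 1.2 higher in C24 at 3 h, and 9 were called higher and 13 lower in Col after 24 h. EXLA2, of the same subfamily as EXLA1, averaged 5.69 in C24 at room temperature, 7.11 after 3 h and 7.21 after 24 h. In Col it averaged 8.51 after 24 h and 5.91 at room temperature. EXLA2 thus kept its 3 h level in C24 through 24 h, where EXLA1 did not.

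Members linked to endoplasmic reticulum bodies, lectins and defence were mostly lower in Col after 24 h, with 6 of 7 called lower and 1 higher. In Arabidopsis and its relatives these bodies store beta-glucosidases, and jacalin-related lectins join the enzymes in complexes when tissue is damaged. NAI2 (AT3G15950), a protein needed to form the bodies, was at 6.12 and 6.44 in C24, then at 8.77 and 8.68 at 3 h, then at 6.66 and 6.76 at 24 h. Its Col signals were 7.64 and 7.78 after 24 h, against 9.82 and 9.88 at room temperature, a difference of -2.14 ± 0.10 (adjusted p = 2.41e-08). NAI2 was thus brighter in unchilled Col than on any C24 array.

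AT1G52060, a jacalin-related lectin, was at 5.69 and 5.44 in C24, then at 7.47 and 7.66 at 3 h, then at 6.02 and 5.91 at 24 h. In Col it was at 6.59 and 6.53 after 24 h, against 8.02 and 8.28 at room temperature. JAL33 (AT3G16450), another such lectin, was at 9.65 and 9.68 in C24, then at 11.44 and 11.40 at 3 h, then at 9.40 and 9.50 at 24 h. Both lectins fell in Col, with differences of -1.59 for AT1G52060 and -1.02 for JAL33. JAL33 was at 9.83 and 9.80 in Col after 24 h, against 10.80 and 10.88 at room temperature, so that the C24 3 h arrays were the brightest for JAL33 and the Col room temperature arrays for AT1G52060.

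BGLU47 (AT4G21760) was placed in this group by its beta-glucosidase family only, and a link to endoplasmic reticulum bodies was not tested. BGLU47 was at 4.86 and 4.93 in C24, then at 7.11 and 7.12 at 3 h, then at 5.0 and 5.05 at 24 h. Its Col signals were 4.34 and 4.53 after 24 h, against 6.42 and 6.48 at room temperature, and it fell by 2.01. AT4G13580, a dirigent-like protein of a family that guides lignan and lignin coupling, fell by 2.49 in Col. AT1G50060, of the family of pathogenesis-related protein 1, fell by 1.28. AT1G20030, of the thaumatin family of defence proteins, rose by 0.62. Col at room temperature was at or above the C24 3 h mean for 4 of the 7 and at or below the C24 room temperature mean for 0 of 7.

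Transcripts known for expression in roots were also higher in C24 at 3 h and lower in Col after 24 h, but kept part of their rise. The median difference of the measured root markers from C24 at room temperature was 1.96 at 3 h and 0.69 at 24 h. Of 28 root markers listed, 8 were measured by a probe set of 1 gene, and AT1G52060 is the only member among them. Of the 8, 5 stood at least 1.2 higher in C24 at 3 h. All 8 were called lower in Col after 24 h, where 25.9% of all probe sets were called lower. Their summed log2 signal was 44.3 and 44.1 in C24, then 61.4 and 61.2 at 3 h, then 53.6 and 53.7 at 24 h. In Col it was 60.2 and 60.2 after 24 h, against 68.6 and 70.3 at room temperature. Of the 8, 2 were in the background range on the C24 room temperature arrays and 0 elsewhere. PYK10, the chief beta-glucosidase of root endoplasmic reticulum bodies, averaged 10.61 in C24 at room temperature, 12.53 after 3 h and 11.59 after 24 h. It averaged 12.25 in Col after 24 h, against 12.81 at room temperature. The samples are labelled leaf. The mean log2 signal of 7 measured photosynthesis genes was 12.91 and 12.93 in C24, then 12.91 and 12.89 at 3 h, then 12.35 and 12.34 at 24 h. It was 12.55 and 12.51 in Col after 24 h, against 12.96 and 12.94 at room temperature, and 5 of the 7 were called lower in Col. The part of root tissue in the members' differences was not tested.

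A list drawn by symbol held 26 measured genes for jacalin-related lectins, beta-glucosidases and myrosinase partners, and leaves out the lectin AT1G52060. Of these 26, 2 are members and 3 stood at least 1.2 higher in C24 at 3 h. In Col after 24 h, 4 were called higher and 15 lower, against 23.2% and 25.9% of all probe sets.

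Members of specialised metabolism were called lower in Col after 24 h in 8 of 8 cases, with a median of -1.53. AT1G14120, of the 2-oxoglutarate-dependent oxygenases, which hydroxylate many plant metabolites and hormones, was at 5.87 and 6.23 in C24, then at 8.35 and 8.49 at 3 h, then at 5.92 and 5.71 at 24 h. In Col it was at 5.45 and 5.14 after 24 h, against 8.56 and 8.38 at room temperature, a difference of -3.17 ± 0.14 (adjusted p = 1.22e-08). The C24 3 h arrays and the Col room temperature arrays of this gene overlapped.

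AT5G37990, of a family of methyltransferases, was at 4.51 and 4.54 in C24, then at 6.10 and 6.33 at 3 h, then at 4.72 and 5.0 at 24 h. Its Col signals were 6.23 and 6.32 after 24 h, against 9.06 and 8.70 at room temperature. AT5G38030, of the MATE efflux family that moves metabolites across membranes, was at 4.41 and 4.11 in C24, then at 5.62 and 5.45 at 3 h, then at 4.76 and 4.49 at 24 h. It was at 6.64 and 6.77 in Col after 24 h, against 8.27 and 8.33 at room temperature. For both genes all Col room temperature arrays were brighter than all C24 arrays. Both fell in Col, with differences of -2.61 for AT5G37990 and -1.59 for AT5G38030.

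UDP-glycosyltransferases of this kind attach sugars to small molecules, and 3 of the members with a role in specialised metabolism belong to them. UGT71C1 (AT2G29750), which glucosylates phenolic compounds, was at 4.90 and 4.61 in C24, then at 6.15 and 6.02 at 3 h, then at 4.95 and 4.54 at 24 h. It was at 4.66 and 4.58 in Col after 24 h, against 6.94 and 6.96 at room temperature. UGT72E1 (AT3G50740) was at 7.39 and 7.38 in Col after 24 h, against 8.65 and 8.66 at room temperature. AT4G09500 was at 5.58 and 5.66 in Col after 24 h, against 6.34 and 6.14 at room temperature. All 3 fell in Col, with differences of -2.33 for UGT71C1, -1.27 for UGT72E1 and -0.62 for AT4G09500. Of 51 measured UDP-glycosyltransferase genes on a list drawn by symbol, 2 are members, 7 stood at least 1.2 higher in C24 at 3 h, and 21 were called higher and 12 lower in Col. The isoflavone reductase-like AT1G75300 fell by 1.47 and the oxygenase AT2G30840 fell by 1.16. Col at room temperature was at or above the C24 3 h mean for 5 of the 8 members of specialised metabolism and at or below the C24 room temperature mean for 0 of 8.

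Of 6 members of primary metabolism, transport and redox control, 5 were lower in Col after 24 h. MSRB5 (AT4G04830), which repairs oxidised methionine, was at 8.93 and 8.80 in C24, then at 10.51 and 10.45 at 3 h, then at 8.69 and 8.72 at 24 h. In Col it was at 8.79 and 8.75 after 24 h, against 10.86 and 10.84 at room temperature, and it fell by 2.08. The C24 arrays at room temperature and after 24 h lay near cold-treated Col, and the C24 3 h arrays near unchilled Col. AT1G62660, of the vacuolar invertases that split sucrose, fell by 1.60 in Col. VTC4 (AT3G02870), a phosphatase of ascorbate synthesis, fell by 1.19.

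AT2G35120, of the glycine decarboxylase H proteins of photorespiration, fell by 0.80 in Col. AT2G26690, of the nitrate and peptide transporters (NPF6.2), was at 8.87 and 9.0 in Col after 24 h, against 9.35 and 9.23 at room temperature, and fell by 0.35. HMT-1 (AT3G25900), which makes methionine from homocysteine, had a Col difference of 0.03 and was not called (adjusted p = 0.837). Of 19 measured nutrient transport genes, AT2G26690 was the single member.

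Regulators gave no common direction in Col. Of 8, 3 were called higher and 2 lower, with a median of 0.08. WNK9 (AT5G28080), a WNK kinase, was at 6.65 and 6.59 in C24, then at 7.96 and 7.76 at 3 h, then at 7.04 and 6.94 at 24 h. Its Col signals were 7.05 and 7.11 after 24 h, against 4.89 and 5.29 at room temperature, and it rose by 1.99. Col after 24 h and C24 after 24 h were close for WNK9, although the ecotypes differed at room temperature.

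The PP2C phosphatase family gene AT3G16560 rose in Col by 0.56. PTL (AT5G03680), a trihelix factor that limits growth between sepals, was called higher by 0.31 (adjusted p = 0.00681). The call for PTL was lost without the second Col 24 h array (0.23, adjusted p = 0.0607). The bZIP factor gene BZIP34 (AT2G42380) fell by 0.82 and the bHLH family gene AT5G57150 fell by 0.59.

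SMZ (AT3G54990), an AP2-like repressor of flowering, had a Col difference of 0.17 and was not called (adjusted p = 0.12). The Dof zinc finger gene AT2G28510 had a Col difference of -0.22 and was not called (adjusted p = 0.0679), although it was with an intensity trend and robust prior (adjusted p = 0.0307). The C2H2 zinc finger gene AT5G10970 was not called either (adjusted p = 0.979). The C24 differences at 3 h of these 8 regulators were lowest for BZIP34 and highest, at 1.75, for AT5G57150.

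Of 4 aspartyl protease family members, 1 was called higher and 2 lower in Col. AT4G16563 was at 6.33 and 6.50 in C24, then at 9.16 and 9.02 at 3 h, then at 6.74 and 6.73 at 24 h. It was at 6.87 and 6.97 in Col after 24 h, against 5.97 and 5.92 at room temperature, and rose by 0.97. AT5G10770 fell by 1.49 in Col. AT4G04460 was called lower with a Col difference of -0.30 (adjusted p = 0.029). That call was lost without the first Col 24 h array (adjusted p = 0.123), the second Col 24 h array (adjusted p = 0.0603) or the second Col room temperature array (adjusted p = 0.168). AT5G19100 had a Col difference of -0.19 and was not called (adjusted p = 0.36).

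Genes for making RNA and protein included AT1G17960, of the threonyl-tRNA synthetases, which load threonine onto tRNA. It was at 4.36 and 4.32 in C24, then at 7.71 and 7.66 at 3 h, then at 4.32 and 4.31 at 24 h, a 10.2-fold difference at 3 h. In Col it was at 4.73 and 4.87 after 24 h, against 4.25 and 4.68 at room temperature, a difference of 0.34 (adjusted p = 0.0328). Without the first Col room temperature array the difference was 0.12 (adjusted p = 0.33), and without the second Col 24 h array 0.27 (adjusted p = 0.168). AT1G17960 was thus near the lower quartile of the array in each group except C24 after 3 h.

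NRPC1 (AT5G60040), the largest subunit of RNA polymerase III, which transcribes tRNA genes, was at 5.23 and 5.43 in C24, then at 7.03 and 6.99 at 3 h, then at 5.08 and 4.97 at 24 h. It was at 5.17 and 5.49 in Col after 24 h, against 5.53 and 5.67 at room temperature, and was not called (adjusted p = 0.0632). Without the second Col 24 h array it was called lower, at -0.44 (adjusted p = 0.00915). Of the 9 measured genes for ribosome production, NRPC1 was the single member, and 8 were called higher and 0 lower in Col. AT3G28500, of the acidic ribosomal proteins, was called higher in Col by 0.21 (adjusted p = 0.0338), close to the threshold. The call for AT3G28500 was lost without the first Col 24 h array (adjusted p = 0.206), without the first (adjusted p = 0.0667) or second Col room temperature array (adjusted p = 0.141) and without either C24 24 h array (adjusted p = 0.0506). It was also lost with an intensity trend (adjusted p = 0.0535) and with the Col arrays alone (adjusted p = 0.0859).

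RefSeq lists 5 of the 92 named members as pseudogenes, or 5.43%, against 7.32% of all probe sets with 1 gene. AT2G14650 was at 5.25 and 5.22 in C24, then at 7.65 and 7.71 at 3 h, then at 5.23 and 5.35 at 24 h. It was at 4.87 and 5.01 in Col after 24 h, against 4.55 and 4.51 at room temperature, and rose by 0.41. AT2G04460 was at 4.47 and 4.57 in C24, then at 6.45 and 7.06 at 3 h, then at 4.29 and 4.32 at 24 h, and had no call in Col, at 5.05 and 5.11 after 24 h against 5.23 and 5.23 at room temperature. AT4G10580 was called higher in Col by 0.32 (adjusted p = 0.0118). That call was lost without the first Col room temperature array (adjusted p = 0.0993) or the first Col 24 h array (adjusted p = 0.0568). AT3G31970 and RSU1 (AT3G48130) were not called. The 3 h differences in C24 were 2.44 for AT2G14650, 2.24 for AT2G04460, 2.19 for AT4G10580, 2.18 for AT3G31970 and 1.55 for RSU1. A probe set can bind transcripts of related copies, so the source of these signals is uncertain. The probe sets of AT2G14650, AT4G10580 and AT3G31970 are among the 4 members marked as possibly cross-hybridising. Whether they carry separate signals was not tested.

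**Figure D4:**
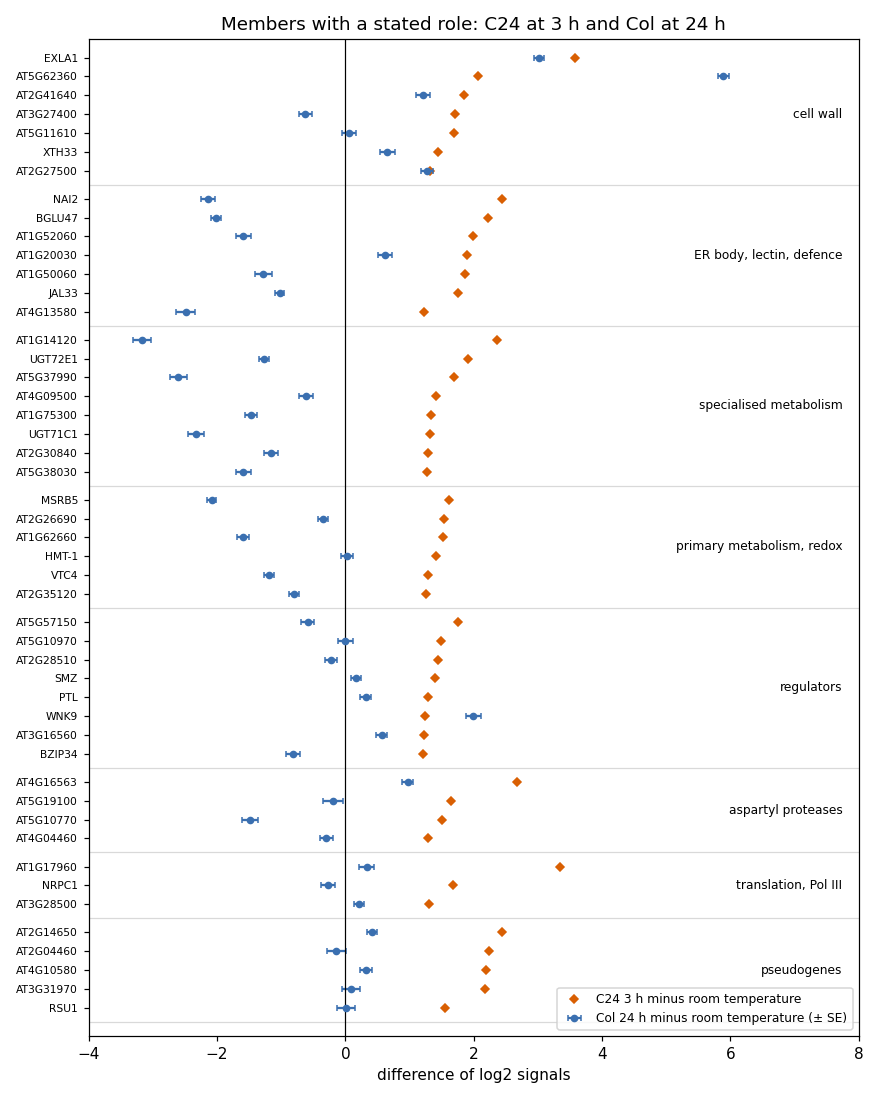
Log2 differences of the 48 named members with a stated role, grouped by role. Diamonds give C24 after 3 h minus room temperature, which chose the members, and circles give Col after 24 h minus room temperature with its standard error. Cell wall circles lie mostly right of 0 and those of specialised metabolism all lie left of it.

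Of the 44 named members without an assigned role, 14 were called higher and 18 lower in Col. AT4G23680, of the polyketide cyclase family, was at 9.06 and 8.95 in C24, then at 12.12 and 12.07 at 3 h, then at 9.06 and 9.14 at 24 h. It was at 7.47 and 7.35 in Col after 24 h, against 9.43 and 9.71 at room temperature, and fell by 2.15. AT1G70420 was at 8.24 and 8.27 in C24, then at 10.79 and 10.78 at 3 h, then at 7.99 and 7.98 at 24 h. It was at 7.58 and 7.44 in Col after 24 h, against 6.40 and 6.36 at room temperature, and rose by 1.13. The C24 3 h arrays were the brightest for both genes, whose Col changes were opposite.

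AT5G26280, a TRAF-like family gene, was at 4.60 and 4.82 in C24, then at 6.95 and 6.98 at 3 h, then at 5.09 and 4.96 at 24 h. It was at 6.18 and 6.24 in Col after 24 h, against 8.07 and 7.71 at room temperature, and fell by 1.68. AT3G19680 was at 7.83 and 7.88 in C24, then at 9.63 and 9.72 at 3 h, then at 8.01 and 7.90 at 24 h. For AT5G26280 unchilled Col was brighter than every C24 array, whereas AT3G19680 was at 8.85 and 9.02 in Col after 24 h, against 7.51 and 7.23 at room temperature. AT3G19680 rose in Col by 1.57, AT1G33600, a leucine-rich repeat family gene, by 1.33, AT3G05980 by 1.33 and AT5G15190 by 0.82. AT3G45730 had 3 h arrays at 6.71 and 6.42 and AT4G22960 at 6.37 and 6.27, with the other 8 arrays of each at or below 4.67, and neither was called in Col (adjusted p = 0.555 and 0.745).

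The level of a member in unchilled Col went with its later direction in Col. Col at room temperature was at or above the C24 3 h mean for 48 members, between the C24 3 h and room temperature means for 76, and at or below the C24 room temperature mean for 72. Of the 48, 4 were called higher and 40 lower in Col after 24 h. Of the 76, 19 were higher and 41 lower. Of the 72, 43 were higher and 8 lower. Both measures use the Col room temperature arrays, so an array reading high or low there moves both, and the counts are a description. Over all probe sets 23.2% were called higher and 25.9% lower, but their calls within these ranges were not counted. Whether the pattern is particular to the members was therefore not tested. The numbers of members in the 3 ranges are set in part by the selection, which used both C24 means.

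**Figure D5:**
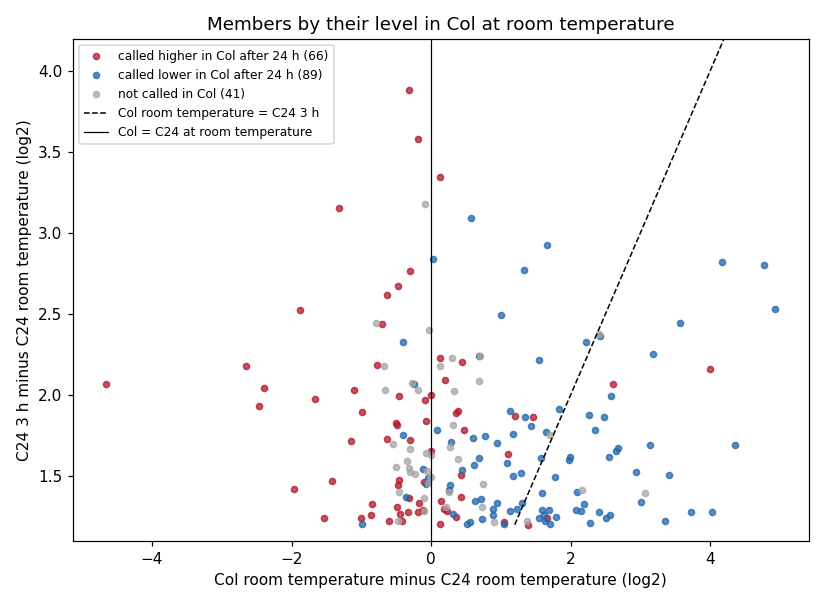
Each point is 1 of the 196 members, placed by Col minus C24 at room temperature on the horizontal axis and by C24 3 h minus room temperature on the vertical axis, both in log2, and coloured by its call in Col after 24 h of cold. Right of the dashed line, where unchilled Col is at or above C24 after 3 h, 40 of 48 members were called lower in Col. Left of the solid line, where unchilled Col is at or below unchilled C24, 43 of 72 were called higher. Calls of all probe sets in these ranges were not counted.

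The room temperature difference, Col minus C24, ranged from -4.65 to 4.93 with a median of 0.39. The selection used the C24 room temperature mean and favours members in which it is low, so this difference is a description. The members' Col room temperature mean was within 0.5 of the C24 room temperature mean for 78 of them. After 24 h of cold, the Col mean was within 0.5 of the C24 mean for 103. Col at room temperature was nearer to C24 after 3 h than to C24 at room temperature for 79 members. At least 1.2 separated the C24 3 h mean from the Col room temperature mean for 99 members, and from the Col 24 h mean for 102.

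Of the 30 pathway and family lists, 5 had no measured gene (seed storage, floral identity, jasmonate, gibberellin and lipid transfer), since a list covers only genes with a probe set of their own in the annotation used. With 0.862% of all probe sets selected, a short list with no member is near the overall share. The lists, drawn by gene symbol or locus code, do not hold every gene of a family. SMZ, AT1G50060 and AT1G20030, described above, are members that stand on none of them. A list without a member is therefore not a family without one. None of 23 measured cytochrome P450 genes, 14 glutathione transferases, 14 defensins and pathogenesis-related proteins, 13 auxin genes, 9 cytokinin genes, 8 calcium and touch genes, 7 WRKY factors, 7 peroxidases, 4 AP2/ERF factors and 2 clock genes met the selection. In C24 at 3 h, 0 of the P450 genes, 2 of the glutathione transferases, 0 of the calcium and touch genes, 1 of the WRKY genes and 2 of the AP2/ERF genes stood at least 1.2 higher. In Col after 24 h, 3 P450 genes were called higher and 10 lower, and 3 glutathione transferases were called higher and 9 lower. Of all probe sets, 23.2% were called higher and 25.9% lower, and no list was tested as a set. Of the clock genes, GI, which links the clock to flowering, averaged 9.58 in C24 at room temperature, 9.94 after 3 h and 10.60 after 24 h. It averaged 10.46 in Col after 24 h and 8.20 at room temperature.

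The named protein-coding members lay on every nuclear chromosome, and members with several genes or none were not placed. All probe sets with 1 gene number 3451, 2200, 2746, 1962 and 3008 on chromosomes 1 to 5. Of the named protein-coding members, 19 are on chromosome 1, 11 on chromosome 2, 20 on chromosome 3, 13 on chromosome 4 and 24 on chromosome 5, and 0 pairs are direct neighbours. No member gene had a further probe set of its own, so each transcript rests on 1 probe set. Of the members, 13 are probe sets marked as matching several transcripts of a family and 4 as possibly cross-hybridising, of 935 and 126 in all.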

How the data were processed

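Total RNA was purified by column, labelled with biotin and hybridised to 10 ATH1 arrays, per the labels' protocols. The authors' deposited log2 signals came from GCOS and RMA, per the submitters' processing notes, without versions. RMA corrects background, normalises quantiles and summarises probes. No depth exists for arrays, and 2 arrays per group limit the precision.

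The members and gene lists were chosen with earlier results of these data known. The 64 control probe sets were set aside, and 22746 were fitted unfiltered with 5 group means in limma 3.58.1 under R 4.3.3 (lmFit, eBayes). P-values were adjusted by Benjamini-Hochberg with a threshold of 0.05. Only the Col contrast is independent of the selection. A gene was named where the annotation gives exactly 1 (13513 probe sets, 13436 of them with a RefSeq locus code). The background range lies below the lower quartile of an array (4.48 to 4.52) on both arrays of a group.

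Named genes were the 14 greatest 3 h differences, the 6 greatest rises and 6 greatest falls in Col, the 4 highest and 4 lowest in Col against C24 at room temperature, those at the bounds, and members of the 30 lists. Other members were named by role after their values were seen. Replicate numbers did not pair the samples (correlations of deviations from -0.12 to 0.12). Alternatives were quantile normalisation, median centring, a replicate block, a robust prior with an intensity trend, a filter on dim probe sets, fewer arrays, 1 probe set per gene, a 2-fold threshold, other selection bounds and each array left out. The fit was tested on simulated data. Promoter sequences were not analysed here.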

Additional observations from a re-analysis of the deposited data

How the results depend on the processing

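The Col counts, 66 members higher and 89 lower, kept within 1.5 times under each normalisation and fit tried. They were 67 and 89 after quantile normalisation, 67 and 85 after median centring, 66 and 90 with the replicate block, 65 and 90 with an intensity trend, 66 and 90 without dim probe sets and 64 and 88 with the Col arrays alone. With each array left out in turn, they were 56 to 67 higher and 84 to 90 lower, the median Col difference -0.16 to -0.12, the number meeting the selection 185 to 210 and the number of members nearer to C24 after 3 h in unchilled Col 71 to 84. With 1 probe set per gene, 28 members were higher and 42 lower, 92 met the selection and 36 were nearer to C24 after 3 h, because unnamed probe sets drop out. At a 2-fold threshold 29 were higher and 53 lower. The selection took 115 probe sets with a 3 h bound of 1.5, 293 with 1.0, and 114 with a 24 h bound of 0.3. Of the members, 99 were also at least 1.2 above Col at room temperature and 142 above C24 after 24 h, both counted after the data were seen. Median centring left 172 in the selection and quantile normalisation 181.

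Of 912 values for 57 named genes, 882 kept their direction and call, 16 lost the call, 2 gained it and 12 changed sign, all 12 without a call. RSU1 was at -0.019 and AT5G10970 at 0.046 after quantile normalisation, and AT5G10970 at 0.033 after median centring. With each array left out, AT5G10970 ranged over -0.18 to 0.17, AT3G31970 over -0.12 to 0.28, AT5G11610 over -0.11 to 0.21, AT5G19100 over -0.39 to 0.010, HMT-1 over -0.049 to 0.10 and RSU1 over -0.070 to 0.080. The cause was not tested.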
